A study of Mus musculus with 6 samples.

Results

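The genes described here encode 10 enzymes that dampen signalling from antigen and NK receptors, out of 55450 genes in the deposited table. They form a set named by gene symbol, drawn up with earlier results of these data known, and each symbol was found once: the tyrosine phosphatases Ptpn6, Ptpn11 and Ptpn22, the lipid phosphatases Inpp5d and Inpp4b, the histidine phosphatases Ubash3a and Ubash3b, the ubiquitin ligase Cblb, and the diacylglycerol kinases Dgka and Dgkz. All 10 were expressed well enough to be tested. Bulk RNA-seq was done on lymphocytes sorted from the mammary gland in late pregnancy (E18.5) in mice: CD8 beta+ T cells gave 3 libraries, and NK1.1+ lymphocytes called double negative (DN) gave the other 3. The sample titles call the cells of both groups T cells. NK1.1 marks natural killer (NK) cells, innate lymphoid cells and a subset of T cells. Which 2 markers DN cells lack is not named, and the sources used here do not give strain, genotype, age or any pooling of mice. No treatment is named, and both groups come from pregnant animals. The series deals with lymphocytes of the mammary epithelium and its differentiation, and the comparison made here asked how transcripts of these brakes differed between DN NK1.1+ and CD8 beta+ cells.

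A lymphocyte receptor that meets its ligand is switched on by tyrosine kinases of the Src and Syk families, and each later step has an enzyme that reverses it. Tyrosine phosphatases remove the phosphate groups, Cbl ligases mark active receptors and kinases for removal, lipid phosphatases consume the product of PI3-kinase, and diacylglycerol kinases consume the lipid that starts Ras and protein kinase C signalling. Loss of several of these enzymes is known to make T cells or NK cells respond too strongly.

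Library totals ranged from 7961360 to 14367299 counts, and values are given as CPM, counts relative to library size, with library sizes corrected for composition by TMM. Cd8b1, for the CD8 beta chain used in the sort, was at 890.2 to 1006 CPM in CD8 beta+ cells and 1.21 to 4.30 CPM in DN NK1.1+ cells, and Klrb1c, for NK1.1, was at 30.8 to 41.7 and 615.9 to 657.9 CPM. The T cell gene Cd3e was present in both groups, at 741.1 to 775.4 and 512.8 to 527.1 CPM, while Cd4 stayed at or below 5.03 CPM in all 6 libraries. Replicate 3 of each group held more transcripts of other tissue: basal and myoepithelial genes summed to 138.5 and 187.8 CPM there and to 10.2 to 22.8 CPM in the other 4, and fibroblast genes to 168.5 and 169.7 CPM against 8.36 to 55.3 CPM. Replicate numbers of the labels are used below as names of libraries.

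The Ubash3 pair and the diacylglycerol kinase pair each hold a gene that fell by more than 2-fold, so the sequences at their starts are shown. Each window covers 250 bases before to 50 after a transcription start (RefSeq, build GRCm38.p6, which is mm10), printed 5′ to 3′ on the gene's strand with CpG dinucleotides in capitals. The windows are chr17:31207816-31208115 on the plus strand for Ubash3a, chr9:41158013-41158312 on the minus strand for Ubash3b, chr10:128744027-128744326 on the minus strand for Dgka and chr2:91963514-91963813 on the minus strand for Dgkz.
Ubash3a: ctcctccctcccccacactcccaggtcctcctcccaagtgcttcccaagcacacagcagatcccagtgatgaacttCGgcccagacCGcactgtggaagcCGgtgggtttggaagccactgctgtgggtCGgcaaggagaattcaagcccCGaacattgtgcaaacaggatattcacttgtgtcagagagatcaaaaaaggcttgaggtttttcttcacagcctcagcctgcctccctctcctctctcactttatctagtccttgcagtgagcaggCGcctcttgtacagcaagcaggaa
Ubash3b: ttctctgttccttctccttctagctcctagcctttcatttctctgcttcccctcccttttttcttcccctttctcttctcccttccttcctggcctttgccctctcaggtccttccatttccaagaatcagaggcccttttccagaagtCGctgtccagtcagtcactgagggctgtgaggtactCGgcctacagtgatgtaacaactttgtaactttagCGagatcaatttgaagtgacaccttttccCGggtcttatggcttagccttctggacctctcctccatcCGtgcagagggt
Dgka: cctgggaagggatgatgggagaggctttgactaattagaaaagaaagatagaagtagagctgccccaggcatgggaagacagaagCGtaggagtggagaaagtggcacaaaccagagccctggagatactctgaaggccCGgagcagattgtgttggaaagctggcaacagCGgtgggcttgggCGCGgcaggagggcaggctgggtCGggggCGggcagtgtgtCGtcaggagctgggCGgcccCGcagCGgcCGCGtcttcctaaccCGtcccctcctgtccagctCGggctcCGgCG
Dgkz: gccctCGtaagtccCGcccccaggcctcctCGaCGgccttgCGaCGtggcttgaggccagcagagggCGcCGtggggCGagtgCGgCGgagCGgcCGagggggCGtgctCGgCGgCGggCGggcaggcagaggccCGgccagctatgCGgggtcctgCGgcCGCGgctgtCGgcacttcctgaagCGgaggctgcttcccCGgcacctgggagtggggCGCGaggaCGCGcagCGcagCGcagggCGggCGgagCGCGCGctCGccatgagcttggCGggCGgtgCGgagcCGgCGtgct

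All 10 genes are protein coding. On build mm10, Ptpn6 lies on chromosome 6 from 124720707 to 124738714, Ptpn11 on chromosome 5 from 121130533 to 121191397, and Ptpn22 on chromosome 3 from 103859795 to 103912247. Inpp5d lies on chromosome 1 from 87620312 to 87720507, Inpp4b on chromosome 8 from 81342556 to 82127914, and Cblb on chromosome 16 from 52031225 to 52208048.

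The windows of Ubash3a and Ubash3b held 6 and 5 CpG, near the median of 7 over 32817 windows of all genes, while those of Dgka and Dgkz held 17 and 43. Of the other 6 genes, Ptpn22 and Inpp5d had 6 each, Ptpn6 had 8, Cblb had 17, Inpp4b had 25 and Ptpn11 had 37. Short motifs of 6 kinds were searched on both strands in the 10 windows. They were CCGGAAG (ETS factors, in 8.86% of all windows), TGTGGT (RUNX, 16.8%), CTTTGAT (TCF/LEF, 3.73%), AGGTGTGA (T-box, 1.27%), TGANTCA (AP-1, 7.81%) and an NF-kappa-B motif (0.411%). The only match was the ETS motif of Ptpn11, whose first base lies 103 bases before the start, in chr5:121191348-121191647 on the minus strand.

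Transcripts of Ubash3a and Dgka were lower in DN NK1.1+ than in CD8 beta+ cells, those of Ubash3b were higher, and those of Ptpn6 were slightly lower. The other 6 genes did not pass the test: Ptpn11, Ptpn22, Inpp5d, Inpp4b, Cblb and Dgkz. Of the 10 genes, 1 was called higher and 3 lower by edgeR's quasi-likelihood test at an adjusted p under 0.05. Of all 13171 genes tested, 13.8% were called, 7.84% higher and 5.99% lower. The median log2 fold change was −0.07 over the 10 genes and −0.003 over all tested genes, and the median size of change, whatever its direction, was 0.28 and 0.29. At an unadjusted p under 0.05 there were 6 of the 10, Ptpn11 and Inpp5d in addition, against 25.0% of all tested genes. With replicate 3 of both groups left out, 3 genes were higher and 3 lower, because Ptpn11 and Inpp5d then passed as higher. Calls over the whole table rose as well, to 9.12% higher and 7.74% lower of 13230 genes tested. In bulk samples, fewer cells that express a gene and less RNA of it per cell cannot be told apart.

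**Figure D1:**
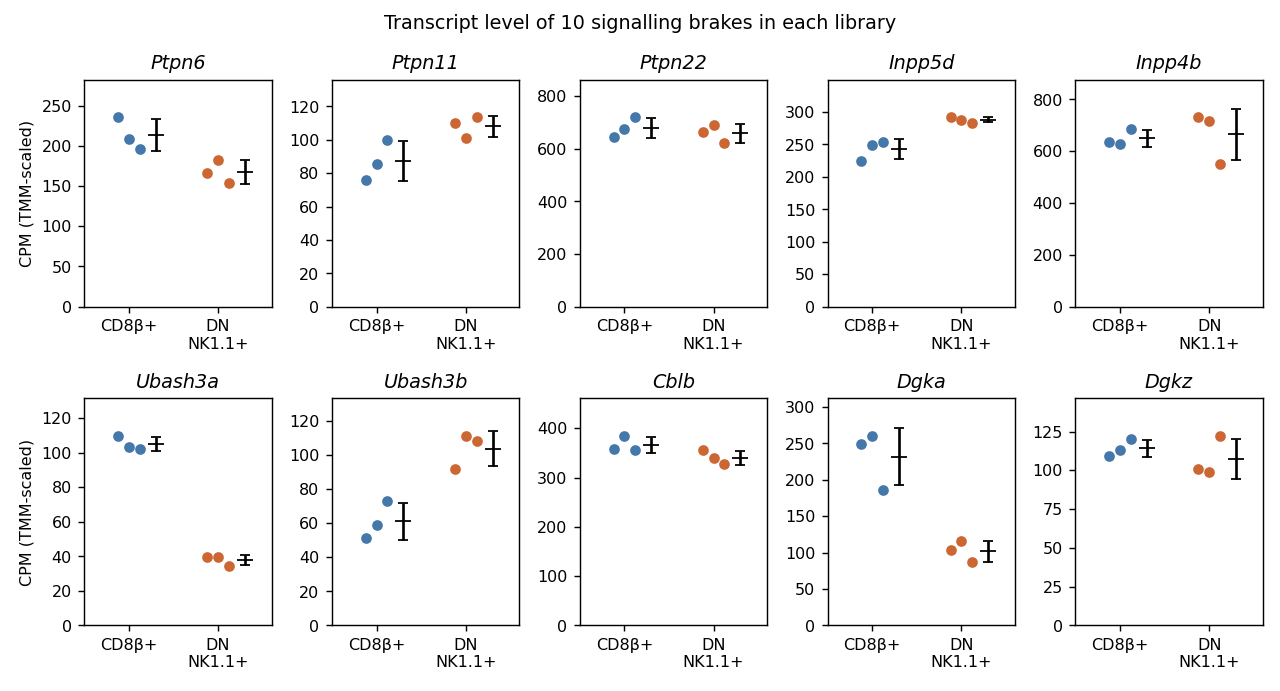
Transcript level (CPM, y axis from 0) of each of the 10 genes in the 3 CD8 beta+ (blue) and 3 DN NK1.1+ (orange) libraries, with mean and SD in black. The groups lie apart for Ubash3a, Ubash3b, Dgka, Ptpn6, Ptpn11, Inpp5d and, by a small margin, Cblb.

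The CPM values of the groups did not overlap for 7 of the 10 genes, with 3 of them higher and 4 lower in the DN NK1.1+ libraries. Over all tested genes this held for 30.6%, 16.0% higher and 14.6% lower. These 7 include Ptpn11, Inpp5d and Cblb, which were not called.

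Ubash3a and Ubash3b encode related proteins, also named STS-2 and STS-1, which dephosphorylate the kinases ZAP-70 and Syk. The phosphatase of Ubash3b is known to be far more active than that of Ubash3a. Ubash3a was at 109.6, 103.1 and 102.0 CPM in the CD8 beta+ libraries, against 39.8, 39.4 and 34.7 CPM in those of DN NK1.1+ cells. The groups lay far apart, with little spread in each. It fell by 1.47 on the log2 scale (SE 0.11, adjusted p = 3.16e-07, edgeR), which is 2.76-fold. Ubash3b went the other way, from 51.4, 58.9 and 73.0 CPM to 92.0, 111.0 and 108.0 CPM. Its highest CD8 beta+ library, replicate 3, was below its lowest DN NK1.1+ library. It rose 1.69-fold (log2 fold change 0.76, SE 0.13, adjusted p = 0.00105, edgeR). Ubash3a lies on chromosome 17 from 31207873 to 31246892, and Ubash3b on chromosome 9 from 41011098 to 41161697.

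The balance within this pair was measured in each library as the log2 ratio of Ubash3a to Ubash3b. It was 0.79 ± 0.30 (SD, n = 3) in CD8 beta+ cells and −1.43 ± 0.22 in DN NK1.1+ cells. The groups did not overlap. The difference was −2.22, and the exact two-sided permutation test over libraries gave p = 0.1, the smallest value that 3 against 3 can give. Per kb of merged exons, Ubash3b made up 41.8%, 46.7% and 52.3% of the pair's level in the CD8 beta+ libraries. Its share was 78.0%, 81.2% and 82.7% in those of DN NK1.1+ cells, so it was the more abundant transcript of the pair in every one of them.

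**Figure D2:**
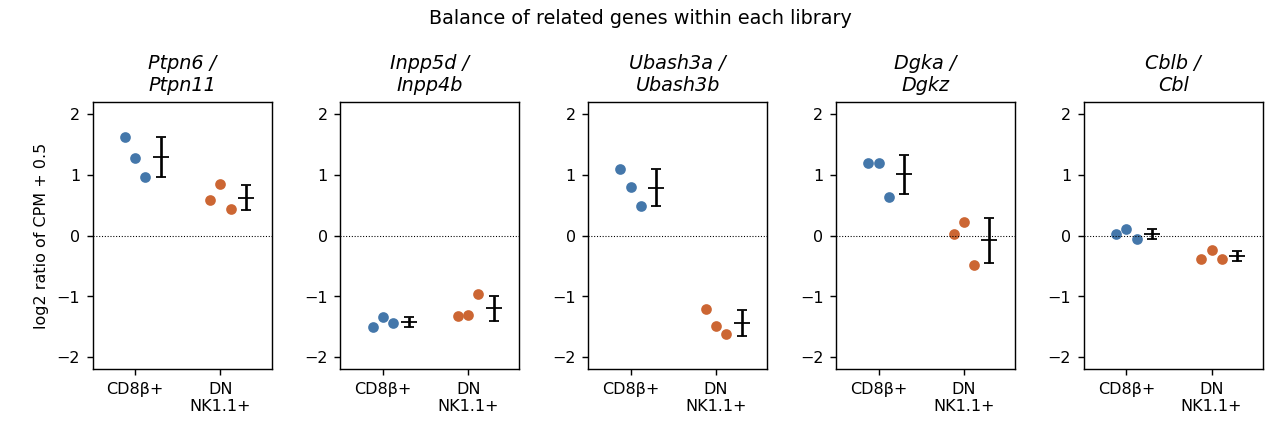
Log2 ratio of CPM + 0.5 for 5 pairs of related genes in each CD8 beta+ (blue) and DN NK1.1+ (orange) library, with mean and SD in black. Groups are separate in all 5 pairs, with differences from −2.22 for Ubash3a over Ubash3b to 0.22 for Inpp5d over Inpp4b. CPM is not corrected for length here, so the position of a ratio against 0 is not read.

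Markers of T cells moved with Ubash3a and Dgka. By edgeR 0 of 8 were higher and 6 lower (the same counts by DESeq2 and at an unadjusted p under 0.05), among them Trac, for the T cell receptor alpha chain (2.69-fold lower), Cd3d (1.94-fold) and Cd247 (1.90-fold). Cd3e, also called, fell less, by 1.47-fold. The other 2 were not called and overlapped between the groups. The list also holds Cd8a and Cd8b1, which code for the CD8 chains. Mean levels in CD8 beta+ and DN NK1.1+ cells were 909.2 and 161.6 CPM for Cd8a and 947.3 and 2.56 CPM for Cd8b1. The sort on CD8 beta fixed the fall of Cd8b1 in advance. The whole list summed to 4248 to 4603 CPM in CD8 beta+ cells and to 1756 to 1951 CPM in DN NK1.1+ cells, with no marker at 0 in all libraries. Cd8a and Cd8b1 made up much of this fall. The part of these cells in the levels of Ubash3a and Dgka was not tested.

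A few of the genes listed as markers of myeloid cells moved with Ubash3b, while most were not called. Of 14 tested markers of dendritic cells, macrophages, monocytes or neutrophils, 3 were higher and 0 lower by edgeR (5 and 0 at an unadjusted p under 0.05, 4 and 0 by DESeq2). The 3 were Itgax, Fcgr3 and Csf1r, and 11 were not called. Among the latter, Adgre1, Cd68, C1qa, C1qb, C1qc and Mrc1 overlapped between the groups. All 16 markers summed to 197.6 to 304.5 CPM in CD8 beta+ cells and to 425.6 to 527.7 CPM in DN NK1.1+ cells. Itgax, the highest of them, accounted for 102.2 to 130.0 and 257.4 to 279.4 CPM of these sums. Lyz2 overlapped between the groups, at 43.1 to 86.0 and 52.2 to 109.9 CPM, and none of the 16 markers was at 0 in all libraries. Of 8 markers of mast cells and basophils, 5 were too low to be tested, and the 3 tested were higher. These 3 were low in CD8 beta+ cells and passed the count filter through their DN NK1.1+ libraries, so their direction was not open. Sums over the list were 0.616 to 3.24 CPM in CD8 beta+ cells and 31.0 to 36.4 CPM in DN NK1.1+ cells, with Prss34 at 0 throughout. The part of either cell type in the level of Ubash3b was not tested.

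Dgka and Dgkz encode diacylglycerol kinases alpha and zeta, which turn diacylglycerol into phosphatidic acid and so limit the Ras activator RasGRP1 and protein kinase C theta. Dgka was at 249.4, 260.0 and 186.6 CPM in CD8 beta+ cells and at 103.4, 115.5 and 86.6 CPM in DN NK1.1+ cells. Replicate 3 was the lowest of each group, yet the groups did not overlap. It fell by 1.19 on the log2 scale (SE 0.14, adjusted p = 5.23e-05, edgeR), which is 2.28-fold. Dgkz was at 109.4, 113.1 and 120.0 CPM and at 100.9, 99.1 and 122.0 CPM, with overlapping groups. Its log2 fold change was −0.09, with a 95% interval of −0.32 to 0.14 (adjusted p = 0.694, edgeR). The log2 ratio of Dgka to Dgkz was 1.01 ± 0.32 (SD, n = 3) in CD8 beta+ cells and −0.08 ± 0.37 in DN NK1.1+ cells (exact permutation p = 0.1, the smallest possible). Dgka lies on chromosome 10 from 128720134 to 128744855, and Dgkz on chromosome 2 from 91932824 to 91975864.

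Ptpn6 encodes SHP-1, a tyrosine phosphatase that docks on the phosphorylated tails of inhibitory receptors. It was at 235.2, 207.9 and 196.0 CPM in CD8 beta+ cells and at 166.0, 182.7 and 153.9 CPM in DN NK1.1+ cells. The groups lay apart by less than the spread within either of them. It fell by 0.35 on the log2 scale (SE 0.10, adjusted p = 0.0354, edgeR), which is 1.27-fold. This call depended on single libraries: the adjusted p was 0.189 without CD8 beta+ replicate 1, 0.0887 without replicate 2, 0.117 without DN NK1.1+ replicate 1 and 0.0852 without replicate 3. It was also above 0.05 with library size scaling only and without robust estimation, with a range of 0.0158 to 0.189 over all alternatives.

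Ptpn11 encodes the related SHP-2, which binds inhibitory receptors too but also promotes Ras signalling. Per kb of merged exons it was at 10.1, 11.5 and 13.3 CPM in CD8 beta+ cells and at 14.7, 13.5 and 15.1 CPM in DN NK1.1+ cells, and its mean CPM not divided by length was 87.2 ± 12.1 and 108.1 ± 6.36 (SD, n = 3 each). The groups were separate by a narrow margin between CD8 beta+ replicate 3 and DN NK1.1+ replicate 2. The change of 0.31 on the log2 scale (95% interval 0.06 to 0.56) did not pass after adjustment (adjusted p = 0.102, edgeR). Without CD8 beta+ replicate 3 the adjusted p was 0.0326, with a range of 0.0326 to 0.385 over all alternatives. The log2 ratio of Ptpn6 to Ptpn11 was 1.29 ± 0.33 and 0.63 ± 0.21 (SD, n = 3 each), and per kb of merged exons Ptpn6 was 3.63 to 8.29 times the level of Ptpn11 in the 6 libraries.

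Ptpn22 encodes a phosphatase that works with the kinase Csk to switch off Lck and ZAP-70. It was at 644.7, 673.4 and 718.9 CPM in CD8 beta+ cells and at 663.4, 692.0 and 621.5 CPM in DN NK1.1+ cells. The 3 values of each group interleave. Its log2 fold change was −0.04 with a 95% interval of −0.24 to 0.16 (adjusted p = 0.837, edgeR), or 0.845 to 1.11 as a fold.

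The lipid phosphatases act in sequence. Inpp5d encodes SHIP-1, which removes a phosphate from the PI3-kinase product PIP3, and Inpp4b encodes an enzyme that acts on the lipid SHIP-1 leaves. Inpp5d was at 225.0, 249.4 and 253.1 CPM in CD8 beta+ cells and at 291.5, 288.2 and 283.7 CPM in DN NK1.1+ cells, with separate groups. Its log2 fold change of 0.25 (95% interval 0.05 to 0.44) did not pass (adjusted p = 0.0916, edgeR), but passed with replicate 3 of both groups left out (adjusted p = 0.0266). Inpp4b was at 636.2, 626.1 and 685.5 CPM and at 730.1, 714.7 and 551.5 CPM. DN NK1.1+ replicate 3 was the lowest of all 6 libraries and the other 2 of its group the highest. The log2 fold change was 0.04 (95% interval −0.20 to 0.27; adjusted p = 0.893, edgeR), and it turned to −0.04 without DN NK1.1+ replicate 1 and to −0.02 without DN NK1.1+ replicate 2.

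Cblb encodes a ubiquitin ligase that restrains T cells lacking costimulation. It was at 358.2, 383.9 and 355.1 CPM in CD8 beta+ cells and at 354.9, 339.3 and 326.7 CPM in DN NK1.1+ cells. The nearest libraries of the groups were at almost the same level. Its log2 fold change was −0.10 (95% interval −0.29 to 0.09; adjusted p = 0.539, edgeR). The related gene Cbl was at 351.2, 354.7 and 369.7 CPM and at 466.7, 400.6 and 424.2 CPM and did not pass either (adjusted p = 0.0779). The log2 ratio of Cblb to Cbl was 0.03 ± 0.09 in CD8 beta+ cells and −0.34 ± 0.09 in DN NK1.1+ cells (SD, n = 3 each; exact permutation p = 0.1, the smallest possible). Over the 5 pairs compared, the p-values were all 0.1, also after Benjamini-Hochberg adjustment.

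**Figure D3:**
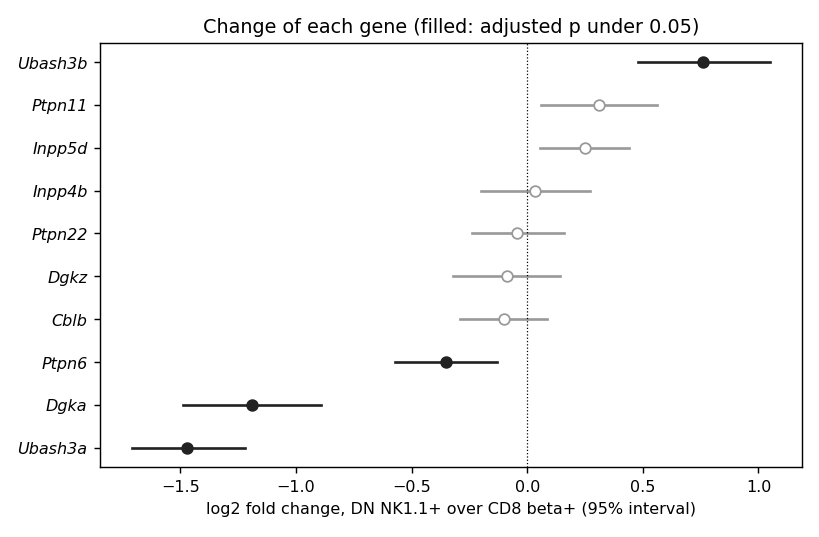
Log2 fold change of each gene (point) with its 95% interval (line), DN NK1.1+ over CD8 beta+, n = 3 libraries each. Filled points passed an adjusted p under 0.05: Ubash3b at 0.76, Ptpn6 at −0.35, Dgka at −1.19 and Ubash3a at −1.47. The lines of Ptpn11 and Inpp5d do not reach 0, but these genes did not pass after adjustment over all genes.

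Levels were compared between genes per kb of merged exons. In CD8 beta+ libraries the order ran from Ptpn22 (100.2 CPM per kb), Ptpn6 (76.0), Inpp4b (49.7), Dgka (48.7), Cblb (34.9), Inpp5d (31.9), Dgkz (18.2) and Ptpn11 (11.6) to Ubash3a (9.34) and Ubash3b (8.34). Inpp4b and Dgka, and likewise Ubash3a and Ubash3b, overlapped between libraries, and all other neighbours were separate. In DN NK1.1+ libraries Ptpn22 (97.3 CPM per kb), Ptpn6 (59.8) and Inpp4b (50.9) again came first, while Dgka (21.4) stood below Inpp5d (37.9) and Cblb (32.5), and Ubash3a was last at 3.38. Neighbours that overlapped there were Ptpn6 and Inpp4b, Dgka and Dgkz, and Ptpn11 and Ubash3b. By the length of the longest principal transcript instead, Inpp4b came before Ptpn6 in both groups. Neighbours that overlapped by this length were Ptpn6 and Dgka, and Ptpn11 and Ubash3a, in CD8 beta+ cells, and Dgka and Dgkz in DN NK1.1+ cells.

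Over the 6 libraries, Atp10d was among the 2 genes whose log2 CPM ran most like that of Ubash3a, which had the largest decrease of the 10 (Pearson r = 0.998), out of 5812 genes with a mean of at least 20 CPM. It was at 71.7 to 77.7 CPM in CD8 beta+ cells and 22.2 to 26.5 CPM in DN NK1.1+ cells. For Ubash3b the 2 genes were Ccdc50 (0.998) and Ppp1r16b (0.997). These coefficients describe 6 points that fall into 2 groups, so they mostly follow the difference between groups.

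Around the 10 genes, 143 others of the same pathway were followed in 9 lists, and 134 were tested. Of these, 33 had risen and 24 had fallen in DN NK1.1+ cells, which is 42.5% against 13.8% of all tested genes. Their median log2 fold change was 0.15. The lists were drawn up with earlier results of these data known.

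Of 24 tested receptors listed as recruiting SHP-1, SHP-2 or SHIP-1, 11 were higher and 5 lower, with a median log2 fold change of 0.37. The list is broad, and recruitment is not established for each of these receptors. The NK receptor gene Klrb1b rose from 0.519, 2.09 and 0.308 CPM to 204.6, 199.0 and 221.1 CPM (log2 fold change 7.52, or 8.97 without CD8 beta+ replicate 2). Its relatives resemble each other closely, so that counts may have been split between them. Pdcd1, for PD-1, fell from 20.1, 26.3 and 35.9 CPM to 0.43, 0.418 and 2.35 CPM (log2 fold change −4.64, or −5.98 without DN NK1.1+ replicate 3). Klrb1b passed the count filter through its DN NK1.1+ libraries and Pdcd1 through its CD8 beta+ libraries, so neither direction was open. Cd5 and Cd6, inhibitory receptors of T cells, fell 15.7-fold and 14.1-fold. Some receptors in this list, such as Klrb1b, are known from NK cells, and markers of NK and innate lymphoid cells moved with them: 9 of 12 were higher and 1 lower by edgeR (9 and 2 by DESeq2 and at an unadjusted p under 0.05), with sums of 657.6 to 908.8 CPM in CD8 beta+ cells and 2668 to 2857 CPM in DN NK1.1+ cells. The 9 include Klrb1c, for the NK1.1 used in the sort, at means of 37.1 CPM in CD8 beta+ and 638.0 CPM in DN NK1.1+ cells. The sort on NK1.1 fixed the rise of Klrb1c in advance. Ncr1, Khdc1a, Klra4, Klra8 and Gzmc, also among the 9, were at 1.51 CPM or less in every CD8 beta+ library. They passed the count filter through their DN NK1.1+ libraries, so their direction was not open. The part of NK and innate lymphoid cells in these changes was not tested.

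Of 15 tested genes listed as the kinase Csk and inhibitory adaptors, 3 were higher and 7 lower. Csk itself was at 120.8 to 155.7 and 126.4 to 165.5 CPM (adjusted p = 0.47, edgeR). Pag1, whose product anchors Csk at the membrane, rose from 195.5, 203.0 and 183.1 CPM to 366.6, 340.5 and 327.2 CPM. Themis, for a partner of SHP-1 needed in developing T cells, fell from 382.9, 391.0 and 383.6 CPM to 14.4, 8.87 and 4.39 CPM. Sit1, for a transmembrane adaptor that binds SHP-2, fell from 16.7, 11.7 and 10.3 CPM to 0.946, 1.51 and 0.832 CPM. The T cell markers given above, 6 of 8 lower, moved with these, and their part in the changes was not tested.

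Of 16 other genes listed with the tyrosine phosphatases, 3 were higher and 1 lower. Ptprc, for CD45, which activates Src kinases, was at 2310 to 2751 CPM in all 6 libraries (adjusted p = 0.779, edgeR). Ptpn12 rose from 89.9 ± 8.47 to 126.2 ± 14.6 CPM (SD, n = 3 each), and Ptpn13 fell from 22.2 ± 4.23 to 3.74 ± 2.58 CPM (log2 fold change −2.55, or −3.20 without DN NK1.1+ replicate 3). Without DN NK1.1+ replicate 2 neither passed (adjusted p = 0.0671 and 0.0584), nor did Ptpn12 without CD8 beta+ replicate 2 (0.0686). The number of genes of this list called higher was 1 without CD8 beta+ replicate 1 or 2 and 5 without replicate 3. The number called lower was 0 without DN NK1.1+ replicate 2.

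Of 21 other genes listed with the phosphoinositide phosphatases, 1 was higher and 0 lower by edgeR and by DESeq2 (5 and 0 at an unadjusted p under 0.05), which is 4.76% against 13.8% of all genes. Without DN NK1.1+ replicate 3 there were 2 higher. The gene that rose by edgeR with all libraries was Phlpp1, from 16.6 ± 2.23 to 34.7 ± 2.40 CPM. It codes for a phosphatase of the kinase AKT and not of lipids, so no lipid phosphatase of this list was called there. Of 10 PI3-kinase genes, 3 were higher and 2 lower. Pik3cb, for the catalytic subunit beta, rose from 16.5 ± 2.72 to 62.8 ± 4.76 CPM (SD, n = 3 each). Pik3ip1, for an inhibitor of the kinase, fell from 27.1, 24.1 and 15.3 CPM to 10.6, 8.78 and 8.40 CPM.

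Of 21 other genes listed with the ubiquitin ligases and their adaptors, 7 were higher and 1 lower. The list also holds Usp9x and Usp12, for enzymes that remove ubiquitin, and Usp12 is among the 7. March8, for a ligase that removes surface receptors, rose from 1.87 ± 1.36 to 23.7 ± 2.59 CPM (log2 fold change 3.64, or 4.32 without CD8 beta+ replicate 3). It passed the count filter through its DN NK1.1+ libraries, so its direction was not open. Rnf128, for the T cell anergy ligase GRAIL, rose from 1.98 ± 0.71 to 10.7 ± 2.58 CPM. Itch and Nedd4, ligases that act on T cell signalling proteins, rose 1.34-fold and 1.88-fold. The number called higher was 4 without CD8 beta+ replicate 1, DN NK1.1+ replicate 1 or DN NK1.1+ replicate 2.

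Of 8 other diacylglycerol kinases, 4 were tested, and the rest were at 1.34 CPM or less in every library. Dgkd rose from 187 ± 8.11 to 241 ± 2.28 CPM and Dgkh fell from 23.9 ± 1.34 to 14.3 ± 2.02 CPM. The call of Dgkh ended without CD8 beta+ replicate 1 or 2 or DN NK1.1+ replicate 1 or 2 (adjusted p = 0.0547 to 0.075). Of 14 genes listed with those that make or sense diacylglycerol, 2 were higher and 5 lower. The list also holds the Ras activators Sos1 and Sos2, which do neither, and Sos2 is among the 2 (log2 fold change 0.70). The phospholipase genes moved in opposite directions: Plcg1 fell from 222.0, 208.6 and 225.1 CPM to 63.4, 62.5 and 58.1 CPM, and Plcg2 rose from 22.1, 14.6 and 16.8 CPM to 151.0, 170.0 and 163.3 CPM. The kinase C gene Prkcq fell 1.59-fold, and Rasgrp1 was at 434.3 to 460.9 and 369.9 to 413.2 CPM (adjusted p = 0.188, edgeR). Of 9 Ras GTPase-activating proteins, 2 were higher and 2 lower, or 1 lower without CD8 beta+ replicate 1 or DN NK1.1+ replicate 1. Dab2ip rose from 0.968 ± 0.853 to 23.4 ± 3.62 CPM (log2 fold change 4.61, or 5.61 without CD8 beta+ replicate 3) and Rasa3 fell from 172 ± 17.7 to 96.0 ± 1.33 CPM. Dab2ip, at 1.95 CPM or less in CD8 beta+ cells, passed the count filter through its DN NK1.1+ libraries, so its direction was not open.

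**Figure D4:**
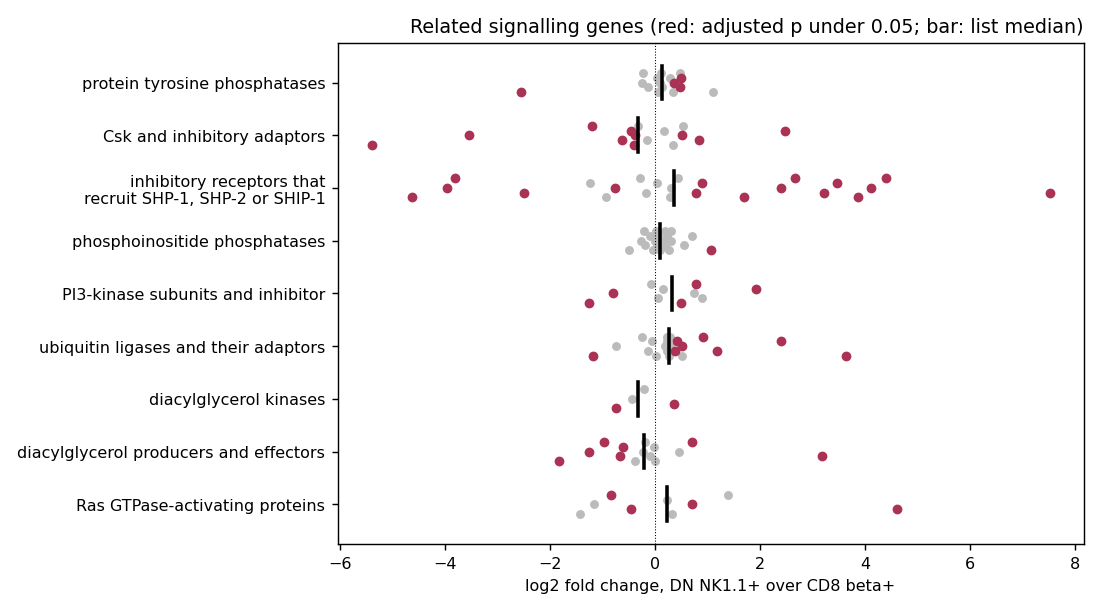
Log2 fold change of every tested gene of the 9 related lists, DN NK1.1+ over CD8 beta+, 1 point per gene, with red for an adjusted p under 0.05 and a black bar for the list median. Points of the receptors and adaptors spread widely on both sides of 0, from −5.40 for Themis to 7.52 for Klrb1b, while genes listed with the phosphoinositide phosphatases gather around their median of 0.09.

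Markers of the remaining cell types gave these values. B cell and plasma cell genes had 1 of 10 higher and 1 lower by edgeR (2 and 2 by DESeq2, 2 and 3 at an unadjusted p under 0.05), with sums of 187.5 to 298.5 and 301.1 to 356.3 CPM, mostly Ighm at 149.6 to 208.9 and 246.5 to 288.5 CPM. Luminal and milk genes had 1 of 10 higher and 0 lower, with sums of 561.9 to 840.5 and 321.4 to 1716 CPM, led by Csn2. Endothelial genes had 1 of 4 higher and 0 lower, and that gene, Pecam1, is also among the receptors above. Erythroid and platelet genes summed to 12.9 to 42.7 CPM in all libraries, led by Alas2, with 0 of 5 higher and 0 lower by edgeR. Fibroblast and adipocyte genes had 0 of 6 higher and 0 lower, with Adipoq, Plin1 and Cfd at 0 throughout, and basal genes 0 of 6 higher and 0 lower. At an unadjusted p under 0.05 and by DESeq2 these 3 lists also had 0. The part of these cells in the levels of the 10 genes was not tested.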

How the data were processed

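Sorted lymphocytes of mammary glands were profiled by bulk RNA-seq with a Tecan kit, per the labels' protocols, with 3 CD8 beta+ and 3 DN NK1.1+ libraries. The table deposited by the authors holds expected counts per gene, a unit inferred from the numbers themselves. The submitters' processing notes list build mm10 and Cell Ranger 7.1.0, a single-cell tool; the sources used here do not give the aligner, counter or use of strand for the bulk data. All 55450 IDs matched GENCODE M21. Exons of Ptpn6, Dgka and Dgkz share 195, 105 and 222 bases with genes on the other strand (Gm20531, Pmel and Gm9821), which were at 0.216 CPM or less in every library.

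Rounded counts entered a quasi-likelihood fit in edgeR 4.0.16 (R 4.3.3; TMM, robust, group as the only term). Low genes were removed with filterByExpr at a count of 10 and a total of 15. P-values are two-sided, adjusted by Benjamini-Hochberg over 13171 genes with a threshold of 0.05. SE and 95% intervals derive from the F statistic. Whether replicates are separate animals is not stated, so p-values reflect only variation among these libraries, which may be technical. One count was worth 0.0721 to 0.13 CPM. Within a group, chi-square per degree of freedom between libraries was 9.16 to 25.2, so none was a copy. The fit was tested on simulated data, where it recovered 36.1%, 58% and 81.2% of changes of 1.5-fold, 2-fold and 4-fold. Of its 124 calls there, 8.1% were false, against the threshold of 0.05. A gene with a small change can therefore go uncalled.

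Ratios used log2 of CPM + 0.5 and an exact permutation test. The genes and lists were chosen with earlier results of these data known. The text names, per list, the 2 called genes that changed most among those reaching 5 CPM in a group; others were named after their values were seen, and 2 genes are not reported here. The motifs and promoter windows were chosen after the data were seen; of several windows, the most upstream found in a GENCODE transcript was used. Alternatives were RLE, upper quartile or no scaling, DESeq2 1.42.0, limma-voom (limma 3.58.1), no filter or a minimum count of 50, a replicate block, no robust estimation and leaving out libraries.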

Additional observations from a re-analysis of the deposited data

How the results depend on the processing

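Over 16 alternatives, Ubash3a, Dgka and Ubash3b kept their direction and their call, with log2 fold changes of −1.50 to −1.40, −1.33 to −1.08 and 0.65 to 0.90. Cblb and Dgkz kept their direction and were called in 0 of 16, as were Ptpn22 and Inpp4b, whose sign turned in 2 alternatives each. Ptpn6 lost its call with library size only (−0.30) and without robust estimation (−0.35); with single libraries left out its log2 fold change ran from −0.42 to −0.28, and the cause was not tested. Ptpn11 ran from 0.21 to 0.41 with single libraries left out. Leaving out replicate 3 of both groups together was chosen after seeing the data. It gave 3 genes of the 10 higher, with Ptpn11 at 0.38 and Inpp5d at 0.29, and 1207 higher and 1024 lower of 13230 genes tested; the cause was not tested. With single libraries left out, 1 to 2 of the 10 were higher and 2 to 3 lower, and of all genes tested, 681 to 1093 were higher and 499 to 883 lower. Library size scaling moved the median of all genes by 0.05, the largest shift of any scaling. The 5 pair ratios kept their direction under each alternative tried for them.

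Deviations from the group mean correlated at −0.04, 0.19 and 0.26 between same-numbered libraries of the groups. Between libraries of the groups with different numbers they ran from −0.263 to 0.0974. Whether the numbers mark pairs was not tested. The main fit did not use them, and the replicate block was run as an alternative. With the replicate block, 1137 genes were higher and 945 lower, against 1033 and 789, and Ptpn6 was at an adjusted p of 0.0226 with the same 1 and 3 of the 10 genes called by count. Each of the 10 genes had at least 396 counts in every library.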
